A study of Mus musculus with 6 samples.

Results

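The 9 Sox genes Sox4, Sox5, Sox6, Sox7, Sox8, Sox9, Sox11, Sox12 and Sox13 were followed in C2C12 cells, a mouse myoblast line that fuses into myotubes when serum is changed. They are 9 of the 43074 gene symbols in a table of raw counts and 9 of the 20 Sox family symbols in it. The genes were picked by symbol, with Sox8 put in view by its difference between cells given 4-phenylbutyric acid (4-PBA) and cells given DMSO at day 4. In that comparison the values of the 9 genes are therefore given as a description, without p-values, and counts of calls there support nothing. The choice of Sox8 used the 4-PBA and DMSO libraries, which the comparisons with day 0 use too. The day 0 group was wild-type (WT) C2C12 cells labelled as non-treated, from a line grown in medium with 10% fetal bovine serum. The other groups were WT C2C12 cells switched to differentiation medium for 4 days, with 5% horse serum and either DMSO or 1 mM 4-PBA, which helps proteins fold and also blocks histone deacetylases. The 3 groups had 2 libraries each, and all 6 libraries carried batch number 1. C2C12 is a single immortalised line, and the labels do not say whether the 2 libraries of a group came from separate cultures, so p-values measure the spread between these libraries, which may be technical.

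Sox proteins are transcription factors that bind and bend DNA through an HMG box, and they are sorted into groups by the likeness of that box. SoxC factors (Sox4, Sox11, Sox12) have transactivation domains and are known from neuronal and mesenchymal progenitors. SoxE factors (Sox8, Sox9, Sox10) act in neural crest, glia, cartilage and gonad, and Sox8 and Sox9 have been described in muscle satellite cells, where they hold back differentiation driven by MyoD. SoxD factors (Sox5, Sox6, Sox13) have no transactivation domain and work with partner proteins, and in muscle Sox6 represses genes of slow fibres. Sox7 is a SoxF factor, a group best known from endothelium.

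The 250 bases upstream of the annotated start are shown for Sox8, which had the largest changes of the 9 genes, and for the SoxC genes, of which Sox4 and Sox11 rose at day 4 and Sox12 fell. They are RefSeq sequences of build GRCm38.p6 from the minus strand, written 5′ to 3′, and 7 of the 9 genes have an entry in the table of such windows. Capitals mark matches to a motif searched. The bases just after the annotated start were found in a GENCODE M21 transcript of the gene for Sox8, Sox4 and Sox12. They were not found for Sox11, so distances given for it rest on the RefSeq start alone.
Sox8 (chr17:25570687-25570936): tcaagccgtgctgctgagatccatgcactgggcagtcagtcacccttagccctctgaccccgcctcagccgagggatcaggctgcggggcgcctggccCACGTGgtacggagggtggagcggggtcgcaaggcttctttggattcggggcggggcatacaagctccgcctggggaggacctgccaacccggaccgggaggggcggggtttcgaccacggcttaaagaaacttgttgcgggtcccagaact
Sox4 (chr13:28953700-28953949): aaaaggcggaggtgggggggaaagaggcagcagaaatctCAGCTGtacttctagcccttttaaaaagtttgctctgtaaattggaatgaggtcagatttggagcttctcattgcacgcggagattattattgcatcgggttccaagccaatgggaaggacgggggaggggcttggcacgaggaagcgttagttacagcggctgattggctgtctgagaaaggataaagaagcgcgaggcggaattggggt
Sox11 (chr12:27342719-27342968): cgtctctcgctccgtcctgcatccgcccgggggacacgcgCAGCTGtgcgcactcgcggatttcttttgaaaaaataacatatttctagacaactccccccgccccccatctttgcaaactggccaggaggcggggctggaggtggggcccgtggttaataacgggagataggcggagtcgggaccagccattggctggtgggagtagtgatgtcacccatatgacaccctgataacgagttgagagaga
Sox12 (chr2:152398047-152398296): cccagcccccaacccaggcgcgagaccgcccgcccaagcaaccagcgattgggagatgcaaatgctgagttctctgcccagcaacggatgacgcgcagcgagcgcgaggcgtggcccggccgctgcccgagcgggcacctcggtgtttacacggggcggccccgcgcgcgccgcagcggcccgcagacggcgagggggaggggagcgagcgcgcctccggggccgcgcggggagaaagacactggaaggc

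Both strands of these windows were searched for CAGCTG (an E-box of the kind bound by MyoD), CACGTG (an E-box of the kind bound by Myc and USF factors), GCGNGGGCG (Egr), an NF-κB consensus and AACAAT (Sox), the E-boxes reading the same on either strand. CACGTG was added to the search after the Sox8 window had been seen, so its match there was chosen. Sox8 held CACGTG with 146 bases between it and the start, and 6.02% of 32851 windows of that length held this motif. Sox4 and Sox11 each held CAGCTG, 205 and 204 bases from the start, a motif found in 13% of the windows. A window of Sox6 held CAGCTG too, 150 bases from the start. The 7 genes had 12 windows between them, several of them of Sox6, while the shares over all windows are per window. The windows of Sox12 and Sox13 and the single window of Sox5 held no match to the 5 motifs. No window of the 7 genes held the Egr or NF-κB motif, which stood in 4.7% and 1.41% of all windows. AACAAT occurred in 9.42% of all windows and, of the 7 genes, in a single window, of Sox6. These matches describe letters, not binding. G and C made up 65.6% of the Sox8 window, 50.8% of that of Sox4, 58.0% of that of Sox11 and 74.4% of that of Sox12, against a median of 52.4% over all windows.

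Total counts ranged from 47908926 to 74697397 per library. CPM here are counts scaled to library size after TMM normalization. Levels of the 9 Sox genes are compared with each other only as CPM per kb of exonic sequence in GENCODE M21. Markers and listed genes named as the highest or most abundant were ranked by CPM, without scaling to length. Of the 9 genes, 8 had enough counts to be among the 17433 genes tested, and Sox7 did not. All 10 myoblast and myotube markers were tested. At day 4 with DMSO 9 of them were higher than at day 0, at an adjusted p-value under 0.05 in edgeR. The other 1, Myf5, was lower, at 22.9 against 50.2 CPM. Over all tested genes 33.8% were higher and 32.6% lower at that threshold. The summed level of the 8 endothelial markers was 1.496 to 2.73 CPM in every library, with Pecam1, Cdh5 and Tek the highest by their mean over all 6 libraries. The cartilage marker Acan had at most 2 counts in any library and Col2a1 at most 10. The 8 fibroblast and mesenchymal markers summed to 480 to 485 CPM at day 0, 2050 to 2157 CPM with DMSO and 2093 to 2094 CPM with 4-PBA, with Col1a1, Ly6a and Dcn the highest by their mean over all 6 libraries, while Tcf21 had 0 counts and Thy1 at most 2. Of these 8 markers 6 were tested, and with DMSO 5 were called higher than at day 0 and 1 lower. The lower gene, named after its values were seen, was Pdgfra, at 11.1 against 13.9 CPM (log2 fold change -0.32, SE 0.0864). The part of these markers in the changes of the Sox genes was not tested. In bulk RNA a smaller share of cells with a transcript and less of it per cell cannot be told apart.

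Per kb, Sox4, Sox9 and Sox11 were the most abundant of the 9 genes in each group. At day 0 their levels were 32.9 ± 0.527, 28.8 ± 0.278 and 10.8 ± 0.101 CPM per kb (SD, n = 2). Sox13 (0.818 ± 0.124 CPM per kb), Sox12 (0.740 ± 0.0380), Sox8 (0.322 ± 0.0294), Sox5 (0.121 ± 0.00942), Sox6 (0.0281 ± 0.0112) and Sox7 (0.0190 ± 0.00848) followed in that order. The libraries of Sox13 and Sox12 overlapped, as did those of Sox6 and Sox7, so the order within those pairs was not beyond the spread. At day 4 with DMSO the order was Sox4, Sox9, Sox11, Sox8, Sox13, Sox12, Sox5, Sox6 and Sox7, with no overlap between neighbours, and with 4-PBA it was the same. Sox8 thus moved from the sixth place to the fourth. Exonic lengths ran from 3118 bases for Sox8 to 14832 for Sox6 and cover all annotated isoforms, so the levels of Sox5 and Sox6, which have many, are understated if cells make only some of them.

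**Figure D1:**
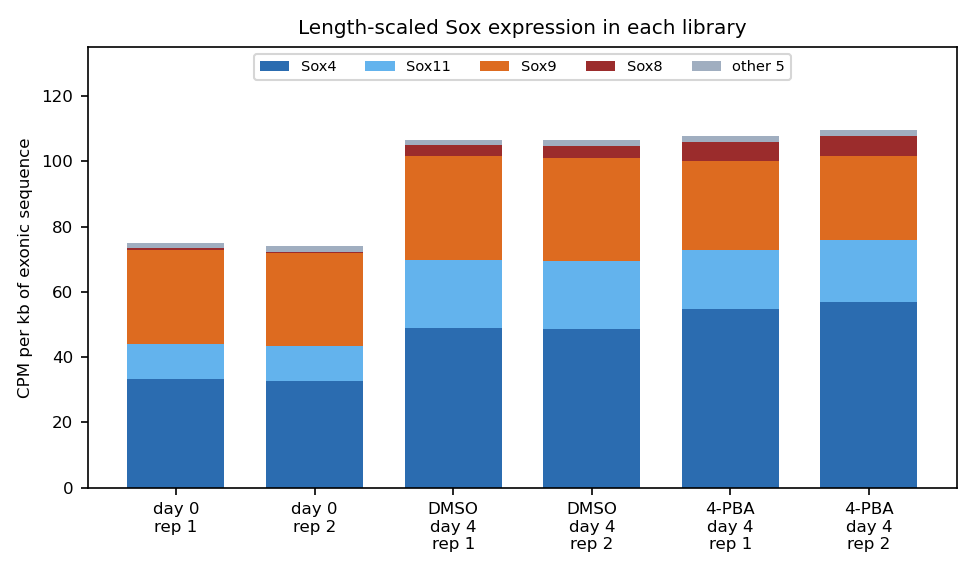
Level of the Sox genes in CPM per kb of exonic sequence (vertical axis, from 0) in each of the 6 libraries, stacked by gene, with the 5 least abundant genes summed. The stack stands at 74.0 to 75.0 at day 0, at 106 to 107 with DMSO and at 108 to 110 with 4-PBA.

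Added over the 9 genes, the level was 75.0 and 74.0 CPM per kb in the day 0 libraries, 107 and 106 in the DMSO libraries, then 108 and 110 in the 4-PBA libraries. The SoxC genes made up 59.7% and 59.5% of it at day 0, 65.8% and 65.6% in DMSO, then 68.1% and 69.7% in 4-PBA. SoxE genes made up 39.1% and 39.0%, then 33.0% and 33.3%, then 30.7% and 29.2%. The stacked plot of length-scaled levels shows that the day 4 groups were close in their sum and differed in its make-up, with more Sox4 and Sox8 and less Sox9 and Sox11 with 4-PBA.

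Setting the DMSO libraries against day 0 asked how the Sox genes changed during differentiation without the drug. Of the 8 tested genes 6 passed the threshold, an adjusted p-value under 0.05 in edgeR's quasi-likelihood test. Sox4, Sox8, Sox9, Sox11 and Sox13 rose and Sox12 fell, and the count includes Sox8, whose choice used these DMSO libraries. Over all tested genes 66.3% passed in this comparison, so the share among the Sox genes was near the background. The groups' libraries did not overlap for 7 of the 8 genes, against 81.9% of all tested genes. The median log2 fold change of the 8 genes was 0.38, beside 0.023 over all tested genes.

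With 4-PBA at day 4 against day 0, which shares the day 0 libraries with the first comparison, 6 of the 8 genes also passed, beside 65.6% of all tested genes (33.2% higher and 32.4% lower). Sox4, Sox5, Sox8 and Sox11 rose, and Sox9 and Sox12 fell, and the count includes Sox8, which was chosen with these 4-PBA libraries. Libraries did not overlap for 7 genes, against 81.8% of all tested genes, and the median was 0.42, beside 0.018 over all tested genes.

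**Figure D2:**
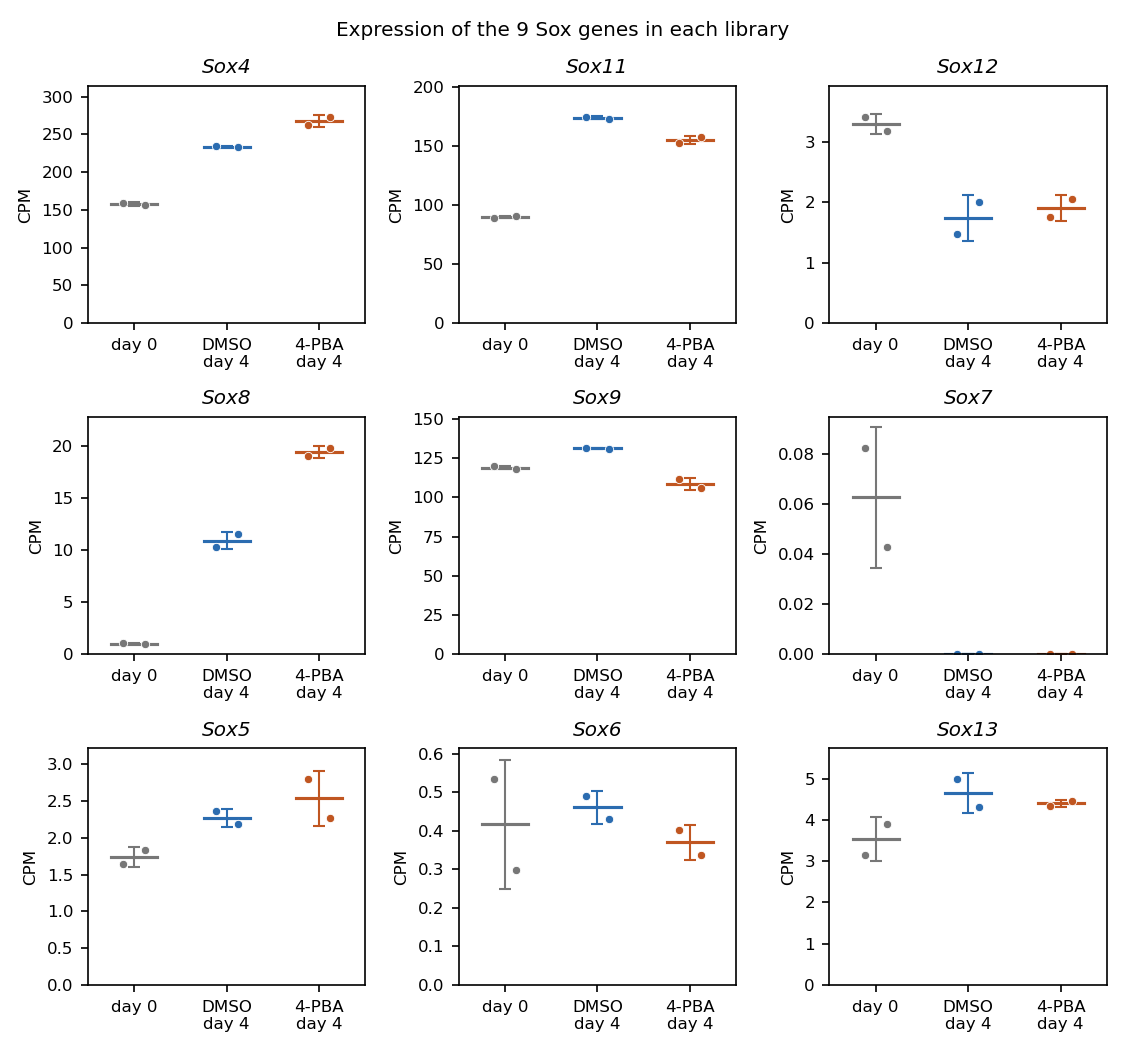
CPM of each of the 9 Sox genes (vertical axes, from 0, scaled per gene) at day 0, with DMSO at day 4 and with 4-PBA at day 4. Points are libraries, horizontal lines are means and bars are ± SD over 2 libraries; Sox8 steps up from about 1 to 10.9 and 19.4 CPM, and Sox9 lies highest with DMSO and lowest with 4-PBA.

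Sox8, the SoxE factor of satellite cells, was low at day 0, with 1.07 and 0.940 CPM (52 and 66 counts). It stood at 10.3 and 11.5 CPM with DMSO (650 and 851 counts), and the 4-PBA libraries held 19.0 and 19.8 CPM (1180 and 1228 counts). Both day 4 groups lay far above day 0, and the gap from day 0 to DMSO was larger than the spread within either group. Between day 0 and DMSO Sox8 rose 10.9-fold (log2 fold change 3.45, SE 0.133). This value is given as a description, since the choice of Sox8 used the DMSO libraries too. Among tested genes 2.80% had a log2 fold change at least as high in that comparison. Between day 0 and 4-PBA the level differed 19.5-fold (log2 fold change 4.28, SE 0.128), a value given as a description because Sox8 was chosen for its level in those 4-PBA libraries. Exons of Sox8 share 10.6% of their length with 2810468N07Rik, an antisense gene of GENCODE M21 that was not analysed here. The library kit was directional, but whether counting used strand is not given in the sources used here.

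With the drug the mean level of Sox8 was 19.4 ± 0.544 CPM against 10.9 ± 0.828 CPM with DMSO, a log2 fold change of 0.83 (SE 0.0889), or 1.78-fold. This value chose the gene: by size it had rank 2 of 352 among rises past the threshold. Those 352 rises reached a mean of 5 CPM or more in at least 1 of the groups. Their 4-PBA and DMSO libraries also did not overlap. When any 1 library was left out, or the scaling, filter, test or block was changed, the log2 fold change stayed between 0.76 and 0.91.

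Sox9, the SoxE factor known as the master regulator of cartilage, was abundant throughout, with 120 and 118 CPM at day 0, 132 and 131 CPM with DMSO, then 112 and 106 CPM with 4-PBA. The groups did not overlap, and day 0 lay between the day 4 groups. Against day 0 it rose slightly with DMSO (log2 fold change 0.14, SE 0.0358, edgeR adjusted p = 6.98e-04) and fell slightly with 4-PBA (log2 fold change -0.13, SE 0.0361, edgeR adjusted p = 0.00189). The fall with 4-PBA was not called without 4-PBA replicate 2 (log2 fold change -0.093, edgeR adjusted p = 0.0914; the range over all alternatives was 2.03e-04 to 0.0914). Relative to DMSO, its log2 fold change with 4-PBA was -0.27 (SE 0.0358). Per kb, Sox9 exceeded Sox8 by 84.5-fold and 94.8-fold in the day 0 libraries, by 9.64-fold and 8.62-fold with DMSO and by 4.42-fold and 4.04-fold with 4-PBA. The gap between these SoxE genes was thus smallest with 4-PBA, with Sox8 higher and Sox9 lower than with DMSO.

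Sox4, a SoxC activator and the most abundant of the 9 genes per kb, stood at 159 and 156 CPM at day 0, 234 and 233 CPM with DMSO, then 262 and 273 CPM with 4-PBA. The groups did not overlap and rose in that order. The rise from day 0 was 1.48-fold with DMSO (log2 fold change 0.57, SE 0.0323, edgeR adjusted p = 2.03e-17) and 1.70-fold with 4-PBA (log2 fold change 0.76, SE 0.0323, edgeR adjusted p = 4.30e-21). Between 4-PBA and DMSO the log2 fold change was 0.20 (SE 0.0318). In GENCODE M21 54.6% of its exonic length lies opposite the lincRNA Gm26735, which was not analysed here, so without knowledge of the strand setting the level is uncertain to that extent.

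Sox11, the SoxC factor closest to Sox4 in known roles, stood at 89.0 and 90.1 CPM at day 0, 174 and 173 CPM with DMSO, then 152 and 157 CPM with 4-PBA. Here the DMSO libraries were the highest. It rose 1.94-fold with DMSO (log2 fold change 0.95, SE 0.0347, edgeR adjusted p = 4.50e-23) and 1.73-fold with 4-PBA (log2 fold change 0.79, SE 0.0349, edgeR adjusted p = 1.38e-20). The log2 fold change from DMSO to 4-PBA was -0.16 (SE 0.0338), opposite in sign to that of Sox4. The ratio of Sox4 to Sox11 per kb was 3.11 and 2.998 at day 0, was 2.33 and 2.34 in the DMSO libraries and stood at 2.98 and 3.01 in the 4-PBA libraries, so the 4-PBA libraries overlapped day 0 in this ratio and the DMSO libraries lay below both.

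Sox12, the weakest activator of the SoxC group, fell in both comparisons with day 0, which none of the other 7 tested genes did. It stood at 3.42 and 3.18 CPM at day 0, 1.47 and 2.01 CPM with DMSO, then 1.76 and 2.06 CPM with 4-PBA. Both day 4 groups lay below day 0 and overlapped each other. The log2 fold change was -0.91 with DMSO (SE 0.194, edgeR adjusted p = 1.03e-04) and -0.78 with 4-PBA (SE 0.195, edgeR adjusted p = 6.22e-04). From DMSO to 4-PBA it was 0.12 (SE 0.203), and -0.075 without DMSO replicate 1.

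The SoxD genes were low. Sox13, a SoxD factor known from lymphocytes, stood at 3.15 and 3.90 CPM at day 0, 4.99 and 4.30 CPM with DMSO, then 4.33 and 4.46 CPM with 4-PBA. Day 4 lay above day 0, and the day 4 groups overlapped. It rose with DMSO (log2 fold change 0.38, SE 0.149, edgeR adjusted p = 0.0236). This call was lost without day 0 replicate 1 (log2 fold change 0.24, edgeR adjusted p = 0.240), without DMSO replicate 1 (0.28, adjusted p = 0.188) and with the DESeq2 Wald test (0.38, adjusted p = 0.0669), in a range of 0.0124 to 0.240. With 4-PBA the log2 fold change from day 0 was 0.31 (SE 0.151, edgeR adjusted p = 0.0738), and without day 0 replicate 2 it was 0.48 with an adjusted p of 0.0318, in a range of 0.0318 to 0.437.

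Sox5, the partner of Sox6 and Sox9 in cartilage, had 80 and 129 counts at day 0 (1.65 and 1.84 CPM), 149 and 162 with DMSO (2.36 and 2.18 CPM), and 174 and 141 with 4-PBA (2.80 and 2.27 CPM). Both day 4 groups lay above day 0 and overlapped each other. The log2 fold change from day 0 was 0.37 with DMSO (SE 0.199, edgeR adjusted p = 0.0972), which was not called. It was 0.53 with 4-PBA (SE 0.199, edgeR adjusted p = 0.0182), which was called. The latter call was lost without day 0 replicate 1 (0.46, edgeR adjusted p = 0.0984), without 4-PBA replicate 1 (0.38, adjusted p = 0.190) and with the DESeq2 Wald test (0.53, adjusted p = 0.0564), in a range of 0.0130 to 0.190. Its antisense gene Sox5os1 covers 9.25% of its exonic length and had 0 counts in each library.

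Sox6, the repressor of slow fibre genes, had 21 to 32 counts per library. It stood at 0.535 and 0.299 CPM at day 0, 0.491 and 0.431 CPM with DMSO, then 0.403 and 0.338 CPM with 4-PBA. The day 0 libraries enclosed both day 4 groups, and no change from day 0 was detectable at this depth (log2 fold change 0.18, SE 0.455, edgeR adjusted p = 0.752 with DMSO; -0.14, SE 0.470, adjusted p = 0.817 with 4-PBA). Without day 0 replicate 2 the first of these was -0.21, and without day 0 replicate 1 the second was 0.30. Sox7 had 4 and 3 counts at day 0 and 0 counts in each of the 4 libraries at day 4. A count of 0 allows up to 3 counts, or 0.0404 to 0.0483 CPM, in each of those libraries, a limit that covers counting error only. Taken library by library, these limits enclose the 0.0427 CPM of day 0 replicate 2, except that of DMSO replicate 2, which was 0.0404 CPM. The libraries were not pooled and the difference was not tested.

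**Figure D3:**
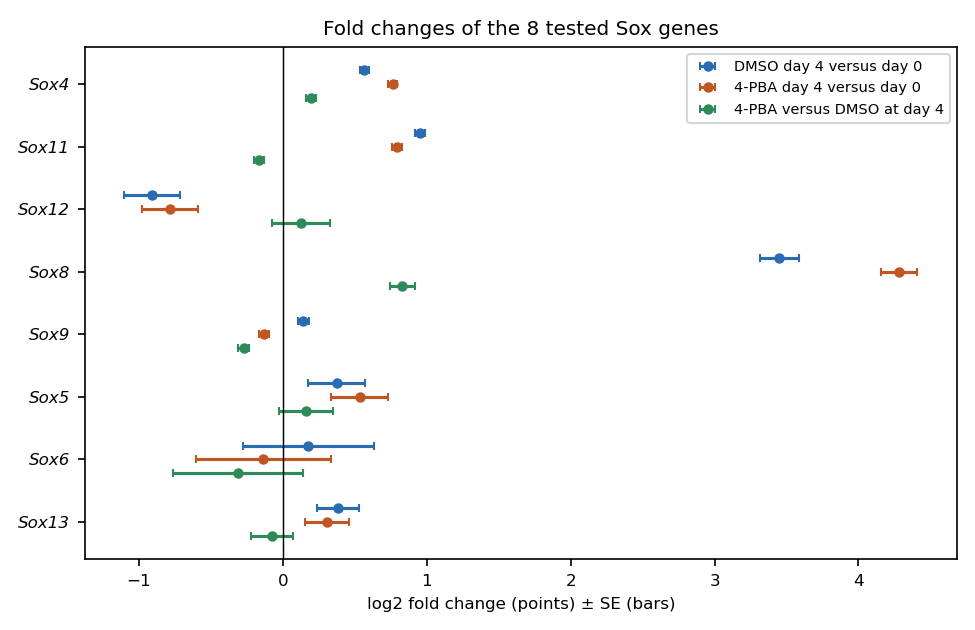
log2 fold changes (horizontal axis) of the 8 tested Sox genes in the 3 comparisons, with bars of ± SE. Sox8 lies far to the right of the others in both comparisons with day 0, and Sox4 and Sox11 lie on opposite sides of 0 between 4-PBA and DMSO, at 0.20 and -0.16.

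Between 4-PBA and DMSO at day 4, the comparison that put Sox8 in view, 4 of the 8 tested genes were on the called side of the threshold used over all genes, Sox4 and Sox8 higher and Sox9 and Sox11 lower. Over all tested genes 4.90% were past it, and nothing is read from the count because the genes were chosen with this comparison known. Sox11 was not past it without 4-PBA replicate 1 (log2 fold change -0.14). Libraries did not overlap for 5 of the 8 genes, against 45.5% of all tested genes. The median log2 fold change was 0.024, beside 0.0021 over all tested genes. The remaining genes stood at 0.16 (SE 0.190) for Sox5, -0.31 (SE 0.455) for Sox6, 0.12 (SE 0.203) for Sox12 and -0.077 (SE 0.145) for Sox13. Single libraries moved these values: leaving out 4-PBA replicate 1 gave 0.00099 for Sox5, and leaving out 4-PBA replicate 2 gave 0.30 for Sox5 and -0.19 for Sox6. For Sox13, leaving out DMSO replicate 1 gave 0.031 and leaving out DMSO replicate 2 gave -0.18. In the plot of fold changes the SE of Sox5, Sox6, Sox12 and Sox13 was larger than the value itself in this comparison.

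Of the 11 Sox family genes outside the 9, Sry, Sox1, Sox3, Sox10, Sox14 and Sox17 had 0 counts in each library. Sox21 had at most 2 counts, Sox18 at most 12, Sox30 at most 16 and Sox15 at most 22. Sox2, the pluripotency and neural progenitor factor, stood at 3.66 ± 0.0581 CPM at day 0 and fell to 0.411 ± 0.0469 CPM with DMSO (log2 fold change -3.16, SE 0.257, edgeR adjusted p = 3.70e-13) and 0.548 ± 0.0912 CPM with 4-PBA (-2.74, SE 0.250, adjusted p = 7.03e-12). Sox10, the third SoxE gene, was thus not detected beside Sox8 and Sox9.

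The genes with a profile most like that of Sox8 were sought among 10680 other tested genes with a mean of at least 5 CPM. Likeness was the root mean square difference of log2 CPM, each gene centred on its mean over the 6 libraries. Since all 6 libraries entered the search, steps shared with Sox8 follow from how the genes were picked and support nothing. The nearest was Prelp, a small leucine-rich proteoglycan of connective tissue, at a difference of 0.25. Prelp stood at 1.87 and 1.48 CPM at day 0, 15.8 and 14.5 CPM with DMSO, then 22.8 and 20.7 CPM with 4-PBA, and, as for Sox8, its 3 groups did not overlap. Tmc3 (0.27), the cholesterol exporter Abca1 (0.32), the matrix gene Hmcn1 (0.32) and the collectin Colec10 (0.33) followed. From DMSO to 4-PBA the log2 fold change was 0.83 for Sox8, 0.52 for Prelp, 0.20 for Tmc3 and 0.084 to 0.12 for the other 3. Among the Sox genes in this pool the nearest was Sox11, at a difference of 1.45 and rank 1051, followed by Sox4 at 1.51 and Sox9 at 1.85.

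**Figure D4:**
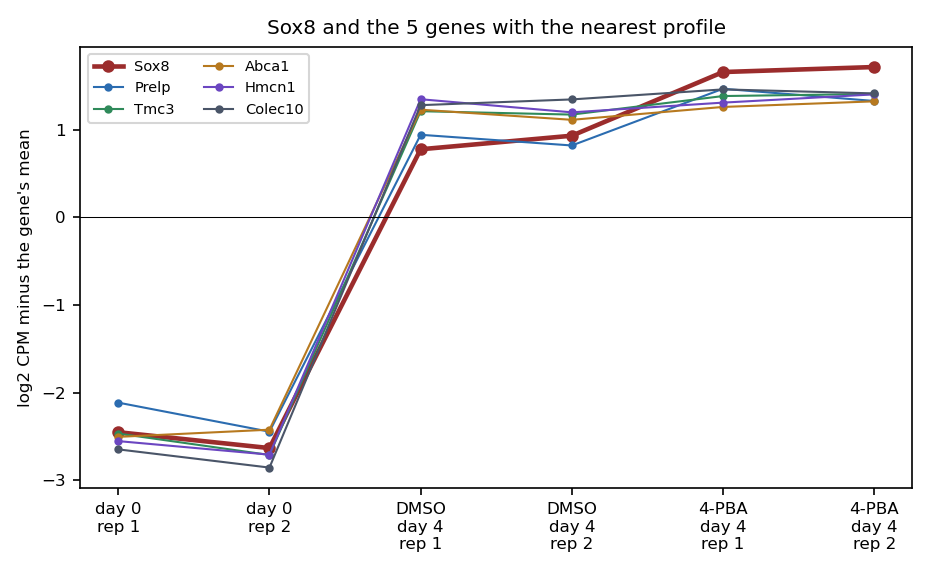
log2 CPM minus the gene's mean (vertical axis) in the 6 libraries for Sox8 and the 5 genes with the nearest profile. Lines join libraries for reading only; Sox8 and Prelp step up again from DMSO to 4-PBA, by 0.83 and 0.52, and the other genes by 0.20 or less.

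Genes linked to the Sox groups were compared through lists, which were chosen with earlier results of these data known. Over all tested genes 33.8% were called higher and 32.6% lower between DMSO and day 0, and 2.13% and 2.78% between 4-PBA and DMSO. Of 18 cartilage genes activated by Sox9 with Sox5 and Sox6, 7 were tested. With DMSO at day 4, 4 of them were called higher and 0 lower, with a median log2 fold change of 0.82. The 3 most abundant were the fibrillar collagen genes Col11a1 (from 1.72 ± 0.132 to 13.2 ± 0.284 CPM, log2 fold change 2.95, SE 0.119), Col11a2 (0.82, SE 0.144) and Col27a1 (1.31, SE 0.181). Hapln1 (-1.04, SE 0.536), Col9a3 (-0.94, SE 0.487) and Matn3 (-0.70, SE 0.327), named after their values were seen, were lower without being called. In 4-PBA against DMSO 1 of the 7 was called, Col11a1, at 18.9 ± 1.73 against 13.2 ± 0.284 CPM (log2 fold change 0.51, SE 0.0868, edgeR adjusted p = 2.00e-04). The list's median was 0.23 there, beside 0.0021 over all tested genes, while Sox9 itself was lower. Col2a1 and Acan, the defining cartilage genes, were too low to be tested.

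Of 14 glial and neural crest genes driven by SoxE factors, 10 were tested; 6 rose with DMSO and 2 fell, with a median log2 fold change of 0.46. Erbb3, the neuregulin receptor, rose from 9.32 ± 1.46 to 82.7 ± 0.934 CPM (log2 fold change 3.17, SE 0.0649). The myelin gene Pmp22 rose by 0.33 (SE 0.0427) and the factor Egr2 by 1.79 (SE 0.262) on the same scale. The call of Egr2 was lost without day 0 replicate 1 (edgeR adjusted p = 0.0627) or replicate 2 (0.0704). The genes that fell, named after their values were seen, were Mbp (-2.68, SE 0.603) and Ret (-2.06, SE 0.224). Mbp had 4 and 19 counts in the DMSO libraries, and leaving out DMSO replicate 1 gave -2.05, leaving out DMSO replicate 2 -4.04. The 4-PBA libraries differed from DMSO in 1 called gene, Pmp22, which stood at 86.4 ± 1.33 against 68.0 ± 0.653 CPM (0.35, SE 0.0416, edgeR adjusted p = 1.15e-06). The list's median there was -0.12.

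Of 12 slow fibre genes repressed by Sox6 in muscle, 12 were tested, and 11 rose with DMSO and 1 fell, Tpm3 (log2 fold change -0.36, SE 0.0303), named after its values were seen. The median log2 fold change was 5.42, beside 4.99 for the 10 myoblast and myotube markers. The slow fibre median was 5.17 with Myl3, which had 0 counts in both day 0 libraries, at the bound that 3 counts set. Tnnc1 rose from 13.9 ± 0.578 to 535 ± 23.7 CPM, Tnni1 from 7.83 ± 0.807 to 491 ± 15.9 CPM and Atp2a2 from 505 ± 2.83 to 740 ± 0.474 CPM. Sox6 showed no detectable change over the same libraries. With 4-PBA against DMSO 0 of these genes were higher and 2 lower, Myh7 (log2 fold change -0.45, SE 0.0590, edgeR adjusted p = 6.07e-06) and Tnnt1 (-0.25, SE 0.0402, adjusted p = 2.16e-04), both named after their values were seen. The list's median there was -0.083.

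Of 6 neuronal and Tead genes associated with SoxC factors, 4 were tested. With DMSO Stmn1 (log2 fold change -1.46, SE 0.0446), Tubb3 (-0.35, SE 0.0431) and Stmn2 fell and Tead2 rose (0.17, SE 0.0423), while Sox4 and Sox11 rose. The rise of Tead2 was not called without day 0 replicate 2 (0.12, edgeR adjusted p = 0.0512). With 4-PBA, relative to DMSO, Stmn1 (0.32, SE 0.0452, edgeR adjusted p = 6.05e-05) and Stmn2 (0.20, SE 0.0511, adjusted p = 0.0171), the latter named after its values were seen, were higher, and 0 genes were lower. The call of Stmn2 was lost without DMSO replicate 2 (0.14, edgeR adjusted p = 0.156), 4-PBA replicate 1 (0.21, adjusted p = 0.0893) or 4-PBA replicate 2 (0.18, adjusted p = 0.195). In the comparison of 4-PBA with day 0, which shares libraries with both others, the called genes were 4 higher and 0 lower of the cartilage list, 4 and 2 of the glial list, 11 and 1 of the slow fibre list, and 1 and 3 of the SoxC list.

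**Figure D5:**
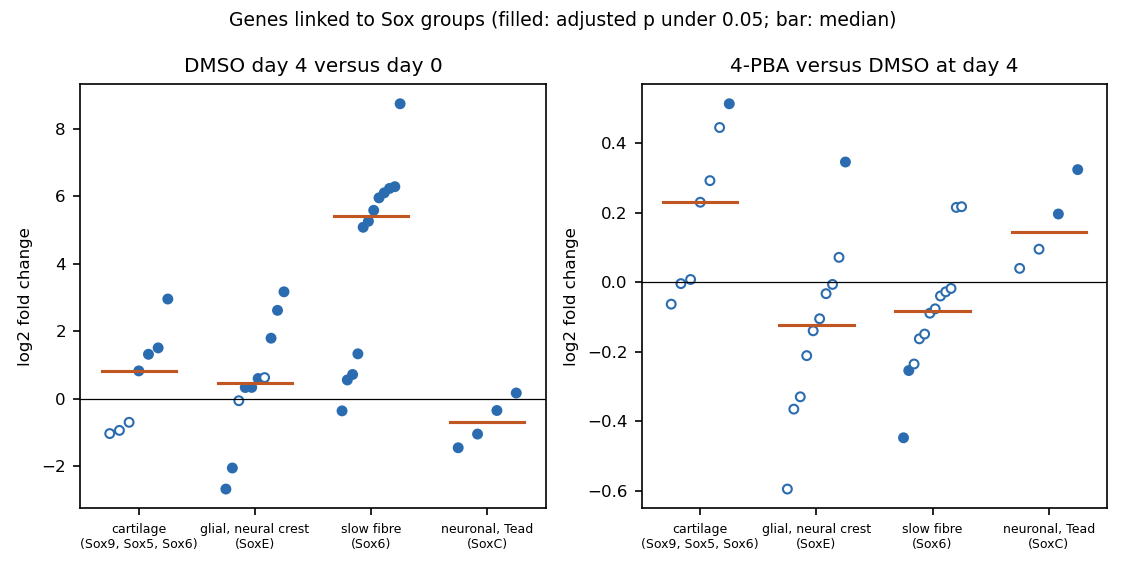
log2 fold changes (vertical axes, scaled per panel) of the tested genes of 4 lists linked to Sox groups, for DMSO at day 4 against day 0 (left) and 4-PBA against DMSO at day 4 (right). Filled points passed the threshold and bars are list medians; slow fibre genes lie highest on the left, with a median of 5.42, and on the right 6 genes are filled, among them Col11a1 at 0.51 and Pmp22 at 0.35.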

How the data were processed

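The authors deposited 1 table of raw counts per gene symbol, with a column for each of the 6 libraries and no column of any other sample. Per the labels, total RNA (100 ng) was treated with DNase and made into libraries with a directional kit. Per the submitters' processing notes the build was GRCm39; the aligner, the counter, the annotation and the strand setting are not given in the sources used here. The members and gene lists were chosen with earlier results of these data known.

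edgeR 4.0.16 in R 4.3.3 was used on the counts: filterByExpr, TMM, 1 mean per group over all 6 libraries, robust glmQLFit, and Benjamini-Hochberg adjustment over 17433 genes, with a threshold of 0.05. The SE is the log2 fold change divided by the square root of F. The common biological coefficient of variation was 3.74%, with 3 residual degrees of freedom; replicates differed by more than sampling noise (chi-square per degree of freedom 3.77 to 6.64). With 2 libraries against 2, relabelling cannot give a p-value under 0.05, so calls rest on a spread shared across genes. Named beside the 9 genes were the 5 genes nearest to Sox8 (log2 CPM with a prior count of 2) and the 3 most abundant of each list. Exonic length and overlaps came from GENCODE M21 (GRCm38), so no gene coordinates of the counts are given. Alternatives were scaling by library size alone or by DESeq2 size factors, a filter of only 1 count, the Wald test of DESeq2 1.42.0, limma-voom (limma 3.58.1), a fit limited to the 4 libraries of a comparison, the replicate number as a block, and leaving out each library. The fit was tested on simulated data. Figures used Python 3.11.15 and matplotlib 3.10.9.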

Additional observations from a re-analysis of the deposited data

How the results depend on the processing

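Of 312 values of the 8 tested Sox genes under 13 alternatives in 3 comparisons, 299 kept their direction and their side of the threshold, 8 lost a call, 1 gained one and 4 changed sign. The sign changes were those of Sox6 between DMSO and day 0 without day 0 replicate 2 (-0.21; range over left-out libraries -0.21 to 0.62) and between 4-PBA and day 0 without day 0 replicate 1 (0.30; range -0.52 to 0.30), and those of Sox12 (-0.075; range -0.075 to 0.37) and Sox13 (0.031; range -0.18 to 0.031) between 4-PBA and DMSO without DMSO replicate 1. These results were not called in either case. The count of Sox genes called ran from 5 to 6 for DMSO against day 0, from 5 to 7 for 4-PBA against day 0 and from 3 to 4 for 4-PBA against DMSO. With the replicate block the counts were 6, 6 and 4, as without it. The replicate numbers gave no sign of pairing: correlations of the replicate deviations between groups were -0.028, -0.0031 and -0.012. Over all genes, 855 were called between 4-PBA and DMSO, but 341 and 295 when 4-PBA replicate 1 or 2 was left out; the other alternatives stayed within 1.5 times. Of 507 values of 24 listed genes, whose alternatives were added after seeing the data, 490 kept their side and direction, 9 lost a call, 2 gained one and 6 changed sign, all between 4-PBA and DMSO and none of them called: Egr2 with library size only (0.0032), limma-voom (6.20e-05), without DMSO replicate 1 (0.20) and without 4-PBA replicate 2 (0.20; range -0.24 to 0.20), Tnni1 without 4-PBA replicate 1 (0.0050; range -0.086 to 0.0050) and Tubb3 without DMSO replicate 2 (-0.045; range -0.045 to 0.13). Counting depth limits Sox6 and Sox7; for the abundant genes the number of libraries limits the precision.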

Other observations

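The TCF/LEF factors carry an HMG box related to that of the Sox proteins and act with beta-catenin in Wnt signalling. A list of 6 genes held the factors Tcf7, Tcf7l1, Tcf7l2 and Lef1 together with Ctnnb1 and Axin2, and all 6 were tested. Between DMSO at day 4 and day 0, 5 rose and 1 fell, beside 33.8% and 32.6% of all tested genes. The median log2 fold change was 0.46. Axin2, named after its values were seen, rose most of the 6 (log2 fold change 2.22, SE 0.127). Tcf7l1 rose from 21.4 ± 0.00307 to 39.2 ± 0.127 CPM (SD, n = 2) and Tcf7 from 39.4 ± 0.284 to 44.3 ± 0.321 CPM, while Ctnnb1, the beta-catenin gene, fell from 570 ± 7.26 to 530 ± 0.336 CPM (log2 fold change -0.10, SE 0.0283). The fall of Ctnnb1 was not called without day 0 replicate 2 (-0.088, edgeR adjusted p = 0.0516). Between 4-PBA and DMSO edgeR called 0 of the 6, and the median was -0.0056.

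Of 18 satellite cell and commitment genes, 17 were tested, and 10 rose and 4 fell with DMSO, beside 33.8% of all tested genes higher and 32.6% lower. The adhesion genes Itga7 (log2 fold change 1.496, SE 0.0265) and Cdh15 (0.92, SE 0.0293) and the receptor gene Megf10 (0.58, SE 0.0316) were the most abundant. The 4 that fell, named after their values were seen, were Met (-1.49, SE 0.0415), Myf5 (-1.14, SE 0.0572), Sdc3 (-0.93, SE 0.0559) and Sdc4 (-0.67, SE 0.0613). Between 4-PBA and DMSO 1 gene was called higher, Cdh15 (0.11, SE 0.0288), and 2 lower, Itga7 (-0.10, SE 0.0258) and Megf10 (-0.19, SE 0.0314). Without 4-PBA replicate 1 or replicate 2 Cdh15 (edgeR adjusted p = 0.236 and 0.172) and Itga7 (0.326 and 0.186) were not called, and without DMSO replicate 2 Cdh15 was not (0.0675). Pairs of lists overlapped in genes, since Cdh15, Myod1, Myog and Myf5 are also in the marker list of myoblasts and myotubes.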
